A study of Mus musculus with 6 samples.

Results

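Proliferating cancer cells with little Mgp and Dcn transcript were examined in orthotopic pancreatic tumours of mice. KPC cells are a mouse line of pancreatic ductal adenocarcinoma, derived from tumours of a genetically engineered model in which Pdx1-Cre acts in the pancreas. They were injected into the pancreas of C57BL/6 mice aged 6 to 8 weeks, and tumours were collected 4 weeks later. KPC-OE-Vector cells carried an empty vector and KPC-OE-MLKL cells an overexpression construct for Mlkl, which encodes the pseudokinase that carries out necroptosis by breaching the plasma membrane. All mice had received KPC cells on the same background, and the labels list 3 samples in each group. Count matrices of 1 OE-Vector library and 3 OE-MLKL libraries were used here, each from a different labelled sample, and a difference between the groups cannot be told apart from a difference between tumours.

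Cells were chosen by their own transcripts. A barcode needed at least 2000 unique molecular identifiers (UMIs, tags that count each captured transcript once), more than 200 genes and under 10% mitochondrial UMIs. Cancer cells were then taken as those with at least 1 UMI of Gm49504, a long intergenic non-coding RNA, and at least 3 UMIs over Krt8, Krt18, Bmp4 and Sox4. Cells with more than 1 UMI of the leukocyte gene Ptprc, with 0.2% or more of complement C1q UMIs or with 1% or more of S100a8 and S100a9 UMIs were left out. Mgp and Dcn, which encode matrix proteins, had to stay under 0.1% of UMIs, and so did the interferon-induced genes Isg15, Ifit1, Ifit3 and Rsad2. Proliferating cells were those with at least 3 UMIs of Mki67 and Top2a together. This left 3477 of 42307 cells that passed the depth and mitochondrial limits, which is 8.22%. OE-Vector 1 held 803 of them, while 521, 1244 and 909 came from OE-MLKL 1, 2 and 3. Among them, 0 barcodes were shared between libraries. The cells that met every other condition with 0 to 2 UMIs of Mki67 and Top2a numbered 10922 and are called cells under the threshold.

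A dividing cell copies its DNA in S phase, prepares for division in G2 and separates the copies in mitosis (M). E2F factors switch on replication genes at the entry into S phase. Most genes of the mitotic machinery are held down by the DREAM complex in resting cells and are switched on late in the cycle by the MuvB, B-MYB and FOXM1 proteins. Mki67 encodes the chromosome-coating protein Ki-67, and Top2a encodes the topoisomerase that untangles replicated DNA. Both are most abundant from S phase to mitosis, so that a rule on their transcripts favours the later phases.

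Promoters of the mitotic machinery share short motifs, and those of 3 genes that were among the highest in these cells relative to cells under the threshold are shown because they carry the motifs read by MuvB and by the trimeric factor NF-Y. The 280 bases shown are from RefSeq on GRCm38.p6, 5′ to 3′ on the strand of the gene, and begin 250 bases before the annotated start. Capitals mark the cell cycle homology region (CHR) and the CCAAT box, each on either strand. Cenpf encodes a kinetochore protein and is at chr1:189688057-189688336 on the minus strand. Hmmr encodes a spindle protein that binds hyaluronan and is at chr11:40733408-40733687 on the minus strand. Aspm encodes a protein of the spindle pole and is at chr1:139454523-139454802 on the plus strand.
Cenpf: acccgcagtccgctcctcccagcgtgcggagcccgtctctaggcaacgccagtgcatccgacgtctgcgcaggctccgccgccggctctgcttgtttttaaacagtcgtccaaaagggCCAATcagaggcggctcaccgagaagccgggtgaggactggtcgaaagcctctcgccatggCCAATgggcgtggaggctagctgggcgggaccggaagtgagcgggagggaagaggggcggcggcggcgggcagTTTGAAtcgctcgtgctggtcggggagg
Hmmr: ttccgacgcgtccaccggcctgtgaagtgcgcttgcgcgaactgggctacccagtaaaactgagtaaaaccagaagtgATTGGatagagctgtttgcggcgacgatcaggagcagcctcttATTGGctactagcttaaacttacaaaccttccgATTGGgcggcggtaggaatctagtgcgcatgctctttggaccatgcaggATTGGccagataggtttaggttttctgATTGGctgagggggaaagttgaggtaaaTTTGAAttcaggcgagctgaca
Aspm: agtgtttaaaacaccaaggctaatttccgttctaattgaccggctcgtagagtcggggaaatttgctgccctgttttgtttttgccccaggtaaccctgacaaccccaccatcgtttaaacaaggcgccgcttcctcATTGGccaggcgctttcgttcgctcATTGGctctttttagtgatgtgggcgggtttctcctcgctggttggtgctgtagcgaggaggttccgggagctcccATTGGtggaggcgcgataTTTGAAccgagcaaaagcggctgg

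In each of the 3 promoters a single CHR lay just past the annotated start, 2 bases after it in Cenpf, 8 in Hmmr and 6 in Aspm. The CCAAT box occurred 2 times in the printed bases of Cenpf, 5 times in Hmmr and 3 times in Aspm. For the shares that follow, motifs were searched on both strands of the table's whole window, from 250 bases before to 50 after the start. The CHR was spelled TTTGAA. A variant of the CHR was spelled TTCGAA, which reads the same on both strands. The E2F site was any of TTTCCCGC, TTTGGCGC, TTTCGCGC and TTTGCCGC, and no motif of 1 name contains that of another. Of all 32851 promoters in the table, 17.9% held the CHR, 1.56% its variant, 37.4% a CCAAT box and 2.26% the E2F site. Both a CHR and a CCAAT box were present in 6.95%. Among 29 promoters of 26 listed genes of the spindle and cytokinesis, 79.3% held the CHR and 58.6% held both. The other mitotic lists had lower shares, with the CHR in 50% of 16 promoters of mitotic cyclins and kinases, in 50% of 20 of condensin, cohesin and exit and in 36.7% of 30 of the kinetochore. Both motifs were present in 43.8%, 40% and 26.7% of these. Among 37 promoters of 30 listed genes of replication, 13.5% held the CHR and 37.8% held the E2F site. The 110 promoters of 95 genes that were at least 2-fold higher than in cells under the threshold in 4 of 4 libraries held a CHR in 46.4% and the E2F site in 20.9%. These are matches of letters, described without a test.

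Mlkl, the overexpressed gene, was examined first in these cells. The gene, ENSMUSG00000012519, spans bases 111311797 to 111338177 of chromosome 8 (minus strand, GRCm38). Levels are given as CPM, a gene's UMIs scaled to a common total of 1e6 UMIs, in the summed cells of a library. Mlkl was at 16.8 CPM in OE-Vector 1 (547 UMIs), and at 10.6, 14.6 and 20.7 CPM in OE-MLKL 1, 2 and 3 (151, 430 and 577 UMIs). The library labelled OE-Vector thus lay inside the range of those labelled OE-MLKL, whose mean was 15.3 ± 5.09 (SD, n = 3). Relative to OE-Vector 1 these libraries had a log2 fold change of -0.24 ± 0.35 (SE), and edgeR gave an adjusted p of 1.0. Free RNA, read from barcodes with 100 UMIs or fewer, held Mlkl at 13.3, 9.0, 12.7 and 10.6 CPM in OE-Vector 1 and OE-MLKL 1, 2 and 3. The overexpression was therefore not visible in the counts of Mlkl in these cells, and the groups are named by their labels throughout. The sources used here do not say if reads from the introduced Mlkl were assigned to this gene, so these values may hold the endogenous gene alone.

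The libraries held 150591289 to 169978362 UMIs each. Proliferating cells were deep, with a median of 37840 UMIs in OE-Vector 1 and of 25221, 21485.5 and 27940 in OE-MLKL 1, 2 and 3. Cells under the threshold had a median of 22872, 12268.5, 11378 and 19040 UMIs in the same order. The rule counts UMIs and not a share of them, so a deeper cell passes it more easily. No doublet caller was run, and 360, 65, 101 and 174 of the proliferating cells held more than 40000 UMIs.

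The label was checked against genes that the rule did not use. Summed lists of 43 S-phase and 52 G2/M genes, neither of which holds Mki67 or Top2a, served as a readout of the cycle. At least 10 UMIs of Mki67 and Top2a were present in 384 of 803 cells in OE-Vector 1, and in 234 of 521, 662 of 1244 and 347 of 909 in OE-MLKL 1, 2 and 3. In these cells the G2/M list stood at 9283 CPM in OE-Vector 1 and at 10316, 10309 and 8493 CPM in OE-MLKL 1, 2 and 3. Cells with no UMI of the pair had 1639, 1729, 1861 and 1945 CPM. The G2/M list was therefore several-fold higher in every library where the pair was abundant.

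Near the threshold the separation was weak. Cells with exactly 3 UMIs, just inside the rule, had the G2/M list at 1777 CPM in OE-Vector 1 and at 2234, 2867 and 1953 CPM in OE-MLKL 1, 2 and 3. Cells with 2 UMIs, just outside it, had 1725, 2040, 2233 and 1957 CPM. In OE-Vector 1 and OE-MLKL 3 these values nearly coincided, and only OE-MLKL 2 showed a clear step of the G2/M list. The S-phase list rose in every library, from 640, 741, 1015 and 765 CPM at 2 UMIs to 749, 891, 1364 and 830 CPM at 3. A cell was then counted as high when its S-phase and G2/M lists together took a larger share of its UMIs than in 95% of the cells without the pair in its own library. Of cells with at least 10 UMIs, 97.1% were high in OE-Vector 1, and 99.6%, 99.7% and 96.0% respectively in OE-MLKL 1, 2 and 3. Of cells with 3 or 4 UMIs, which made up 33.0% of the proliferating cells in OE-Vector 1, and 36.9%, 26.9% and 38.4% respectively in OE-MLKL 1, 2 and 3, only 17.7%, 24.0%, 49.6% and 11.2% were high. Over all proliferating cells the shares were 60.5%, 67.4%, 83.9% and 47.2%. The name proliferating thus fits the cells with many UMIs of the pair, while many cells close to the threshold had cycle genes at the level of cells without it. These shares are a description of cells chosen by related genes.

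**Figure D1:**
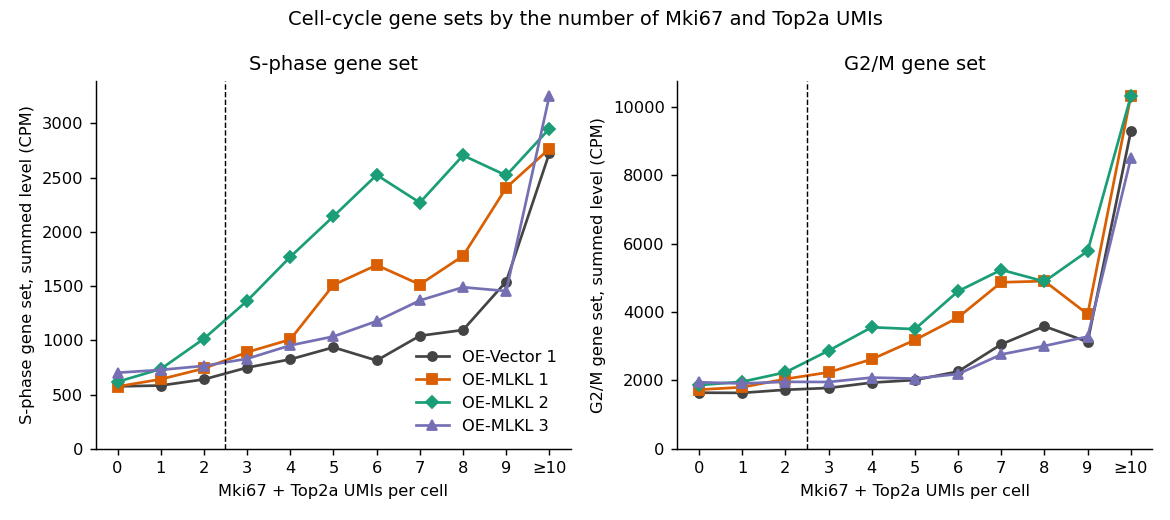
Summed level of the S-phase list (left) and the G2/M list (right), in CPM, against the number of Mki67 and Top2a UMIs per cell in the 4 libraries, with points joined by lines for each library and the threshold of the rule as a dashed line. The G2/M level stayed between 1777 and 2867 CPM at 3 UMIs and reached 8493 to 10316 CPM at 10 or more.

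The identity of the cells was checked next. Gm49504 (ENSMUSG00000116389), on chromosome 16 from 3346350 to 3348370 on the plus strand, stood at 131 CPM in OE-Vector 1 and at 186, 155 and 138 CPM in OE-MLKL 1, 2 and 3, as the rule requires. The keratins Krt19 and Krt7, which the rule did not use, were at 14.2 to 39.2 and 18.0 to 38.9 CPM. Epcam and Cdh1, which encode adhesion proteins of epithelia, were at 1.5 to 11.6 and 3.22 to 6.40 CPM, below the free RNA of the same libraries in all 4. The mesenchymal intermediate filament gene Vim was at 1155 to 2054 CPM. The tumour suppressor Cdkn2a was at 0.27 CPM or less in each library, beside 0.19 to 0.48 CPM in free RNA. Cells under the threshold held Cdkn2a at 0.11 to 0.30 CPM, so its low level did not set the chosen cells apart. Krt7 was above its free RNA level in all 4 libraries, but Krt19 was below it in OE-MLKL 1 (14.2 against 24.9 CPM) and OE-MLKL 2 (30.5 against 33.5 CPM). Beyond the keratins of the rule, epithelial support thus came mainly from Krt7, with Epcam and Cdh1 close to absent.

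Transcripts of most other cell types were well below free RNA. A list of 12 macrophage markers summed to 969 CPM in OE-Vector 1 and to 739 to 1730 CPM in the libraries labelled OE-MLKL, with 0 of 12 genes above their free RNA level in any library. The 8 neutrophil markers summed to 386 CPM and 305 to 751 CPM, against 4684 to 11380 CPM in free RNA. The 8 T and NK cell markers and the 6 endothelial markers stayed at or under 23.2 and 23.0 CPM. Endothelial markers were closer to free RNA, with 11.4 against 20.5 CPM in OE-MLKL 1 and 13.0 against 29.9 CPM in OE-MLKL 3, where 1 of 6 genes exceeded it in each. The 9 fibroblast markers summed to 292 CPM in OE-Vector 1 and to 372, 338 and 328 CPM in OE-MLKL 1, 2 and 3, against 639, 1158, 709 and 715 CPM in free RNA, with 1 of 9 above free RNA in OE-Vector 1 and in OE-MLKL 3. Mgp and Dcn, which the rule limits, are among these 9, and Mgp was the largest at 110 to 261 CPM. The 4 mesothelial markers summed to 8.03 CPM in OE-Vector 1 and to 93.7, 64.5 and 21.8 CPM in OE-MLKL 1, 2 and 3, against 14.9, 64.4, 51.1 and 22.3 CPM in free RNA. The sum was thus above free RNA in OE-MLKL 1 and 2, and nearly all of it came from Msln at 7.63, 93.5, 64.1 and 21.1 CPM. Msln encodes the surface protein mesothelin and is also expressed by pancreatic cancer cells. The mesothelial genes Upk3b, Wt1 and Lrrn4 together made up the small remainder.

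The first comparison asked what share of low Mgp-Dcn cancer cells was proliferating by the rule, with at least 3 UMIs of Mki67 and Top2a. It was 42.8% in OE-Vector 1 (803 of 1878 cells, 95% exact binomial interval 40.5 to 45.0), and 10.7%, 23.1% and 40.4% respectively in OE-MLKL 1, 2 and 3 (521 of 4889, 1244 of 5382 and 909 of 2250 cells). The mean of the libraries labelled OE-MLKL was 24.7% ± 14.9 (SD, n = 3), 18.0 percentage points below OE-Vector 1 (exact two-sided permutation p = 0.5, where 0.25 is the smallest that 1 against 3 libraries can give). OE-Vector 1 was the highest library, but its interval overlapped that of OE-MLKL 3 (38.4 to 42.5). With at least 10 UMIs of the pair, where cycle genes were high in nearly all cells, the share was 20.4% in OE-Vector 1 (18.6 to 22.3), beside 4.79%, 12.3% and 15.4% (14.0 to 17.0) in OE-MLKL 1, 2 and 3. OE-Vector 1 was then above all 3 without overlap of counting intervals, by 9.61 percentage points on average (exact two-sided permutation p = 0.5). This cut also depends on depth, and a thinned value is given below. Intervals cover counting error only. Free RNA held Mki67 at 90.7 CPM in OE-Vector 1 and at 44.2, 89.8 and 77.6 CPM in OE-MLKL 1, 2 and 3. It held Top2a at 243 CPM in OE-Vector 1 and at 95.4, 184 and 149 CPM in the same libraries. The part of free RNA in these shares was not tested.

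Both libraries with the deepest cells, OE-Vector 1 and OE-MLKL 3, had the largest shares, while OE-MLKL 1 had slightly deeper cells than OE-MLKL 2 and a smaller share. Each cell was therefore thinned once to 2000 UMIs, and a cell was counted with at least 1 UMI of the pair. The share was then 27.6% in OE-Vector 1 (25.6 to 29.7), and 10.5%, 21.4% and 27.0% respectively in OE-MLKL 1, 2 and 3, a difference of 7.96 percentage points (exact two-sided permutation p = 0.5). With cells of more than 40000 UMIs left out, the share as counted was 30.8% in OE-Vector 1 and 9.54%, 21.7% and 35.7% in the 3 others, so that OE-Vector 1 moved inside their range. Without those cells the thinned share was 19.4% in OE-Vector 1, beside 10.0%, 20.6% and 23.9% in OE-MLKL 1, 2 and 3, and the difference shrank to 1.20 percentage points (exact two-sided permutation p = 1). A limit of under 5% mitochondrial UMIs kept 379 of 1878 cells in OE-Vector 1. It kept 1695 of 4889, 2435 of 5382 and 681 of 2250 in OE-MLKL 1, 2 and 3. Among these cells the share as counted was 57.8% against 14.7%, 29.3% and 41.9%, above all 3. The exact permutation p of 0.25 was the smallest possible, while other filters and thresholds gave 0.5 or 0.75. Before this limit, proliferating cells had median mitochondrial shares of 5.70%, 5.07%, 4.72% and 5.61% in the same order. Cells under the threshold had 6.28%, 5.56%, 5.29% and 5.66%. The effect of the limit itself on the share was not tested. The thinned share within the limit was 39.1% against 13.2%, 25.9% and 29.2%, a difference of 16.3 percentage points (exact two-sided permutation p = 0.5). OE-MLKL 1 had the lowest share in each of these counts. Leaving out OE-MLKL 3 widened the difference to 25.9 percentage points and leaving out OE-MLKL 1 narrowed it to 11 points. For the cut of 10 UMIs, thinned cells were counted with at least 3 UMIs of the pair. That share was 10.1% in OE-Vector 1 (8.79 to 11.6), beside 1.88%, 6.43% and 7.69% (6.62 to 8.87) in OE-MLKL 1, 2 and 3. OE-Vector 1 then overlapped OE-MLKL 3 and was 4.78 percentage points above the others on average (exact two-sided permutation p = 0.5). With the pair at 0.03% of UMIs or more, 19.8% (18.0 to 21.7) in OE-Vector 1 overlapped 17.2% (15.7 to 18.8) in OE-MLKL 3.

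**Figure D2:**
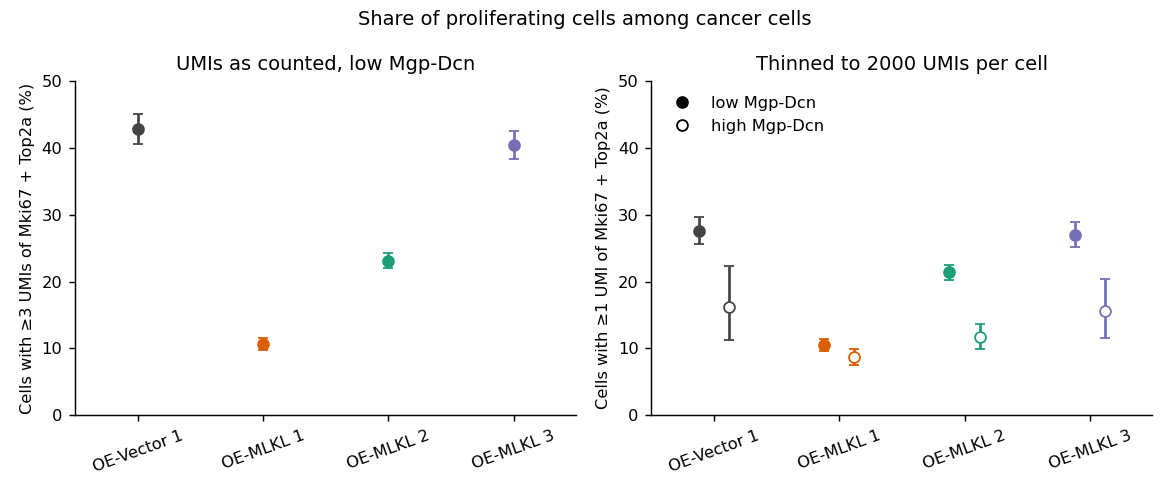
Percentage of cancer cells counted as proliferating in each library, as counted (left, at least 3 UMIs of Mki67 and Top2a) and after thinning to 2000 UMIs (right, at least 1 UMI), with 95% exact binomial intervals. Filled points are low Mgp-Dcn cells and open points, on the right, high Mgp-Dcn cells; OE-Vector 1 and OE-MLKL 3 lay at 42.8% and 40.4% as counted, and OE-MLKL 1 at 10.7%.

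Cancer cells with at least 0.1% of Mgp and Dcn UMIs, chosen otherwise by the same rule, had a lower share of proliferating cells in each of these libraries. Their thinned share was 16.2% in OE-Vector 1 (30 of 185 cells), 8.68% in OE-MLKL 1 (188 of 2165), 11.7% in OE-MLKL 2 (140 of 1196) and 15.6% in OE-MLKL 3 (45 of 288). Low Mgp-Dcn cells exceeded them by 11.4, 1.85, 9.66 and 11.4 percentage points in the same order. The low cells were higher in 4 of 4 libraries, by 8.56 points on average (exact sign-flip permutation p = 0.12, the smallest that 4 pairs can give). The gap in OE-MLKL 1 was small, and its 2 intervals, 9.69 to 11.4 and 7.53 to 9.95, overlapped.

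The second comparison concerned the balance of phases within the proliferating cells. The S-phase list was at 1898 CPM in OE-Vector 1 and at 1977, 2548 and 2066 CPM in OE-MLKL 1, 2 and 3. The G2/M list was at 6085 CPM in OE-Vector 1 and at 6550, 7786 and 5136 CPM in OE-MLKL 1, 2 and 3. OE-MLKL 2 was highest in both lists. The log2 ratio of S to G2/M was -1.68 in OE-Vector 1, beside -1.73, -1.61 and -1.31 in the others with a mean of -1.55 ± 0.21 (SD, n = 3). OE-Vector 1 lay inside their range, and the difference of 0.13 was smaller than their spread (exact two-sided permutation p = 0.75). OE-MLKL 3 had the largest S-phase share. Cells under the threshold held the S-phase list at 596, 614, 712 and 729 CPM in OE-Vector 1 and OE-MLKL 1, 2 and 3. Their G2/M list was at 1661, 1787, 1946 and 1934 CPM in the same order. The excess of G2/M over S-phase UMIs was thus not particular to proliferating cells. Proliferating cells with more S-phase than G2/M UMIs made up 10.1% in OE-Vector 1, and 9.40%, 19.1% and 13.0% respectively in OE-MLKL 1, 2 and 3.

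Single cells with the highest S-phase levels had moderate G2/M levels, and those with the highest G2/M levels had low S-phase levels. Cells were split within each library into 3 sets of near-equal size by the S-phase share of their list UMIs, and genes outside the lists were read as a description. Ccne1, the cyclin of the entry into S phase, was at 15.2, 35.9, 34.0 and 26.8 CPM in the set with the highest S-phase share of OE-Vector 1 and OE-MLKL 1, 2 and 3, against 1.57, 2.00, 4.67 and 4.70 CPM in the set with the lowest. Mcm3, a subunit of the replicative helicase, was at 138, 141, 211 and 148 CPM against 34.4, 29.4, 37.0 and 30.7 CPM. Both genes were thus higher in the set with more S-phase UMIs in every library. Ccnb1, the mitotic cyclin, ran the other way, with 13.7, 23.2, 22.9 and 12.9 CPM in the highest set and 163, 224, 239 and 127 CPM in the lowest. Plk1, a kinase of mitotic entry, gave 11.1, 16.8, 19.0 and 11 CPM against 131, 149, 199 and 91.1 CPM. The CDK inhibitor gene Cdkn1b was at 70.5, 63.4, 49.1 and 75.8 CPM in the highest set and at 102, 103, 86.7 and 128 CPM in the lowest. In the middle sets Ccnb1 was at 13.4 to 62.5 CPM and Mcm3 at 23.8 to 64.6 CPM, both highest in OE-MLKL 2.

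**Figure D3:**
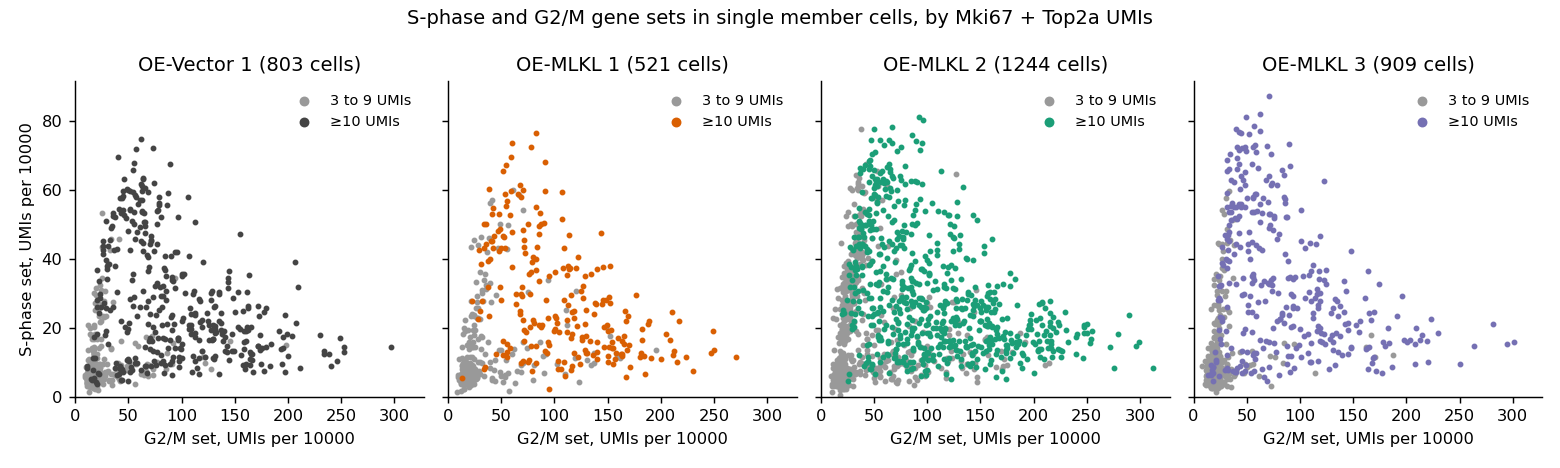
S-phase list against G2/M list in each proliferating cell, as UMIs per 10000 UMIs of the cell, in 4 panels for the 4 libraries. Coloured cells have at least 10 UMIs of Mki67 and Top2a and grey cells 3 to 9; grey cells lie mostly at low G2/M levels, while coloured cells extend to high S-phase or high G2/M levels.

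The profile of proliferating cells was then set beside that of cells under the threshold in the same library. This is the contrast that the rule makes, so its values are given without a test. Of 6644 genes with a mean of at least 20 CPM, 2034 were higher and 2837 lower in 4 of 4 libraries. The median log2 ratio was -0.04. The upper tail was longer. At least 2-fold higher in 4 of 4 libraries were 123 genes (1.85%), and none was 2-fold lower in 4 of 4, while 32 (0.482%) were at least 1.5-fold lower. Of the 123 genes, 104 belonged to the cell-cycle lists used here. Against cells without any UMI of the pair, 126 genes were at least 2-fold higher in 4 of 4 libraries, and 122 genes were in both sets.

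Mki67 and Top2a themselves, which chose the cells, were at 193 and 634 CPM in OE-Vector 1. They were at 170, 310 and 238 CPM (Mki67) and at 472, 728 and 639 CPM (Top2a) in OE-MLKL 1, 2 and 3. Cells under the threshold held Mki67 at 3.75 to 6.61 CPM and Top2a at 26.5 to 37.4 CPM. Cenpf was at 225 CPM in OE-Vector 1 and at 239, 324 and 213 CPM in OE-MLKL 1, 2 and 3, against 7.33, 3.71, 6.93 and 6.91 CPM in cells under the threshold. Its log2 ratio was 4.85, 5.83, 5.45 and 4.85, the largest lowest value of any gene outside the rule. Hmmr was at 112, 67.2, 85.1 and 74.0 CPM, with log2 ratios of 5.25, 5.41, 4.89 and 4.83. Aspm was at 58.5, 47.2, 69.5 and 70.1 CPM, with log2 ratios of 4.74, 5.11, 4.70 and 4.54. These 3 genes, whose promoters are printed above, were high in all 4 libraries.

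Most other genes with the largest ratios have known roles in replication or mitosis. Nusap1, a protein that bundles spindle microtubules, had log2 ratios of 4.46 to 5.43, and Pclaf, a partner of the replication clamp PCNA, had 4.45 to 5.05. Ube2c, the ubiquitin-conjugating enzyme of the anaphase-promoting complex, had 4.43 to 5.42. Tpx2, which activates Aurora A, had 4.31 to 4.70, and cyclin A2 (Ccna2) had 4.30 to 5.20. The kinetochore motor Cenpe, the citron kinase Cit and the spindle motor Kif11 lay between 4.09 and 5.07. Pimreg, Birc5, Cdca8 and Kif15 completed the 15 genes, with lowest values of 4.11, 4.08, 4.05 and 4.03.

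The minimum of 20 CPM applies to the mean of proliferating cells and cells under the threshold. A gene that is scarce in the latter passes it only when it is abundant in the former, which raises the counts by role given next. By role, 25 of 30 listed genes of the spindle and cytokinesis passed it, as did 11 of 23 mitotic cyclins and kinases, 16 of 31 kinetochore genes and 22 of 39 replication genes. Of those 25 spindle genes, 23 were at least 2-fold higher in 4 of 4 libraries, with a median log2 ratio of 3.47. Tubb5 and Tuba1b, tubulins that resting cells also use, were the lowest at 0.81 and among the lowest at 1.48. Of the mitotic cyclins and kinases, 10 of 11 were at least 2-fold higher, with a median of 3.68, from Wee1 at 1.07 to Ccna2 at 4.66. In the kinetochore list 13 of 16 were, with a median of 3.47, and in the condensin, cohesin and exit list 10 of 19, with a median of 1.42. The latter joined genes that act in mitosis, such as Cdc20 at 3.82 and the condensin subunit Ncapg at 4.07, with cohesin subunits that are present throughout the cycle, such as Stag2 at 0.04 and Smc3 at 0.47.

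The replication list had a median between those of the mitotic lists. Of 22 replication genes at 20 CPM or more, 15 were at least 2-fold higher in 4 of 4 libraries, with a median log2 ratio of 1.74. Pcna, the replication clamp, stood at 126 CPM in OE-Vector 1 and at 142, 166 and 114 CPM in OE-MLKL 1, 2 and 3, with a mean log2 ratio of 1.51. The helicase subunits Mcm2 to Mcm7 had mean log2 ratios from 1.60 (Mcm6) to 2.82 (Mcm5). In nucleotide synthesis, Tk1 at 3.84 and Rrm2 at 3.8, the enzymes of thymidine salvage and of deoxyribonucleotide supply, stood far above Paics at 0.10 and Gart at 0.46, which make purines. Of 18 histone and chromatin genes 10 were at least 2-fold higher, with the linker histone genes Hist1h1b at 4.10 and Hist1h1c at 0.06. Among regulators of the entry into S phase 1 of 10 was, and Ccnd1, the cyclin that growth signals induce, had a mean log2 ratio of 0.50.

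**Figure D4:**
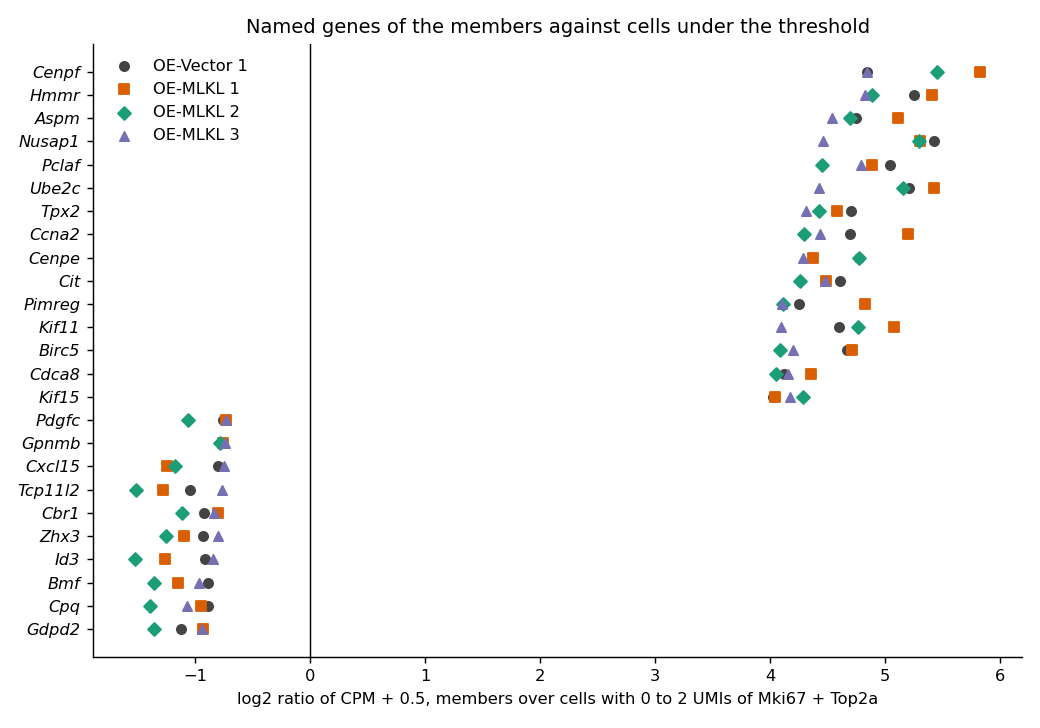
The log2 ratio of CPM plus 0.5 in proliferating cells over cells with 0 to 2 UMIs of Mki67 and Top2a, with 1 point per library, for the 15 genes with the largest lowest ratio and the 10 with the smallest highest ratio. The upper genes lay between 4.03 and 5.83 and the lower genes between -1.52 and -0.73 in the 4 libraries.

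Of the 123 genes, 19 were in none of the cell-cycle lists, and those named here were picked after their values were seen. Besides Pclaf they included Diaph3, a formin that nucleates actin, at a mean log2 ratio of 3.59, and Knstrn, a kinetochore protein, at 3.30. The nuclear lamina gene Lmnb1 was at 2.02 and the histone chaperone partner Dnajc9 at 1.57. Lockd, a long non-coding RNA next to Cdkn1b, was at 2.5. The serine synthesis enzyme Psat1 was at 1.54, in a list of the integrated stress response in which Asns, the asparagine synthetase, was at 1.11 and the regulator Atf4 at 0.10.

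Genes that were lower in proliferating cells had smaller ratios and varied roles. Id3, an inhibitor of helix-loop-helix factors, was at 140 CPM in OE-Vector 1 and at 82.8, 76.0 and 125 CPM in OE-MLKL 1, 2 and 3, with log2 ratios of -0.91, -1.26, -1.52 and -0.84. Bmf, a pro-apoptotic member of the BCL2 family, had log2 ratios of -0.89, -1.15, -1.36 and -0.96. Gdpd2 had -1.12, -0.93, -1.35 and -0.94. The remaining 7 of the 10 lowest were Cpq, Zhx3, Cbr1, Tcp11l2, Cxcl15, Gpnmb and Pdgfc, all of which lay between -1.51 and -0.73. Mxd4, which antagonises MYC, was at a mean of -0.85 and Klhl24 at -0.77, and both were named after their values were seen.

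Other lists were closer to zero, and their counts stand beside 2837 lower and 2034 higher of all 6644 genes. Of 12 targets of p53 at 20 CPM or more, 9 were lower in 4 of 4 libraries and 3 higher, with a median log2 ratio of -0.20 and with Trp53inp1 at -0.73, Gadd45a at -0.69 and Btg2 at -0.58. Of 20 genes of MYC and ribosome biogenesis 19 were higher in 4 of 4 libraries, but none by 2-fold, with a median of 0.42 and with Nop58 at 0.73 and Ncl at 0.66. Myc itself was at -0.11. Of 11 mesenchymal genes 7 were lower in 4 of 4 and 2 higher, with a median of -0.21. Of 12 genes of the death machinery 6 were lower and 3 higher, shares near those of all genes, with the pro-apoptotic Bcl2l11 at -0.63 and Bak1, which opens the mitochondrial membrane, at 0.24. Mlkl was higher than in cells under the threshold in 4 of 4 libraries, at log2 ratios of 0.32, 0.41, 0.38 and 0.28. Among CDK inhibitors Cdkn3, a phosphatase of mitosis, was at 3.29 and Cdkn1b at -0.17. Greater depth of the proliferating cells moved with all these values, and its part in them was not tested.

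The third comparison asked which genes differed between the groups within proliferating cells. Sums of UMIs per library were tested over 15012 genes, and 3 were called at an adjusted p under 0.05 (0.02%), each with fewer UMIs in the OE-MLKL libraries. These were the haemoglobin genes Hbb-bs, Hba-a1 and Hba-a2, for which edgeR gave adjusted p-values of 0.00046, 0.031 and 0.044. Hbb-bs had 1335 UMIs in OE-Vector 1, whereas OE-MLKL 1, 2 and 3 held 1, 3 and 3. The call did not describe the population, because 2 of 803 cells in OE-Vector 1 held all but 34 of its 2131 haemoglobin UMIs, and 1 of them held 1587. Without these 2 cells, 0 of 15006 genes were called by edgeR, and 684 had an unadjusted p under 0.05. With those cells kept, that number was 683, DESeq2 called 43 genes (15 higher and 28 lower), and limma-voom called 1.

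The absence of calls came with a large spread among the libraries labelled OE-MLKL. Over 6644 genes, OE-MLKL 1 and OE-MLKL 2 differed by more than 2-fold in 29 genes (0.436%), whereas OE-MLKL 1 and OE-MLKL 3 differed so in 625 genes (9.41%). OE-Vector 1 differed by more than 2-fold from OE-MLKL 1 in 339 genes and from OE-MLKL 3 in 190 genes. OE-MLKL 3 was therefore farther from the other libraries of its own label than from OE-Vector 1 by this count. Without OE-MLKL 3 the test called 1030 genes, of which 371 were higher and 659 lower. Without OE-MLKL 1 it called 84, and without OE-MLKL 2 it called 23. With 1 OE-Vector library, these counts describe how that library stood against a pair of libraries.

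The genes with the smallest unadjusted p-values at a mean of at least 20 CPM are given as values, since none was called. Sept4, a septin, was at 52.3 CPM in OE-Vector 1 and at 10.8, 11.5 and 17.2 CPM in OE-MLKL 1, 2 and 3, which gave -2.10 ± 0.28 (SE) on the log2 scale (edgeR adjusted p = 0.27). Crybb1, a lens crystallin gene, was at 76.2 CPM against 16.3, 22.8 and 20.9 CPM, with a log2 fold change of -2.02 ± 0.28 (edgeR adjusted p = 0.34). In both genes OE-Vector 1 stood above all 3 other libraries. Cells under the threshold held Sept4 at 75.5 CPM against 18.4, 23.3 and 29.5 CPM, and Crybb1 at 68.9 CPM against 8.72, 14.8 and 18.1 CPM. For every gene named in this paragraph and the next, OE-Vector 1 lay on the same side of the others in cells under the threshold. These differences were thus not particular to proliferating cells. Over all 15012 genes OE-Vector 1 was outside the range of the 3 others, by any margin, in 46.3%. Lcn2, which encodes an iron-scavenging protein, was at 136 CPM against 44.5, 53.6 and 49.4 CPM. The interferon-induced gene Ifi27 was at 262 CPM against 65.9, 95 and 106 CPM, and Bst2 was at 293 CPM against 68.2, 66.4 and 130 CPM. The rule itself limits 4 other interferon-induced genes. Csrp2, Clu, Rad51b, Slfn2 and Dtx4 had log2 fold changes from -1.55 to -1.26.

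In the other direction, Anxa8, an annexin gene, was at 6.65 CPM in OE-Vector 1 and at 43.4, 42.9 and 30.1 CPM in OE-MLKL 1, 2 and 3, which gave 2.47 ± 0.44 (SE) on the log2 scale (edgeR adjusted p = 0.59). Free RNA held it at 6.92 CPM against 26.9, 28.5 and 16.3 CPM, in the same order of groups. Retnlg and Chil3, genes of neutrophils and other myeloid cells, had log2 fold changes of 2.36 and 3.04. Retnlg was at 5.24 CPM against 27.5, 21.7 and 38.0 CPM in the cells, and at 157 CPM against 371, 298 and 633 CPM in free RNA. Chil3 was at 6.74 CPM against 49.4, 88.8 and 35.2 CPM, with 116 CPM against 644, 821 and 447 CPM in free RNA. Apoa4, an apolipoprotein gene of the intestine, was at 10.4 CPM against 31.0, 24.9 and 57.2 CPM, below its free RNA level in every library. The part of free RNA in these differences was not tested. Klf2, Ace, Aqp1, Per1, Crybg1 and Ereg, the last an EGF receptor ligand, had log2 fold changes of 1.35 to 1.57. Klf2 and Per1 were below their free RNA level in every library, as were Lcn2, Slfn2 and Dtx4 among the genes that were lower.

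Cell-cycle genes showed no call in either direction between the groups. Over all 15012 genes, 7880 had a positive and 7132 a negative log2 fold change, and 683 had an unadjusted p under 0.05, and the counts by list stand beside these. Of 39 replication genes 31 had a positive and 8 a negative log2 fold change, with a median of 0.18 beside 0.02 for all genes, and 1 had an unadjusted p under 0.05. That gene was Rpa3, a subunit of the single-strand binding complex, at 38.6 CPM in OE-Vector 1 and at 28.3, 14.7 and 15.3 CPM in OE-MLKL 1, 2 and 3 (log2 fold change -1.07 ± 0.44, SE). Of the 23 mitotic cyclins and kinases 15 were positive, with a median of 0.16. Of 31 kinetochore genes 15 were positive, with a median of -0.02, and of 30 spindle genes 18, with a median of 0.10. OE-Vector 1 was outside the range of the 3 others in 3 of 31 kinetochore genes, 6 of 23 mitotic cyclins and kinases and 21 of 39 replication genes, beside 46.3% of all genes. Hmmr, among the highest genes of these cells, was at 112 CPM against 67.2, 85.1 and 74.0 CPM (log2 fold change -0.66 ± 0.32, SE, edgeR unadjusted p = 0.073). Scaling by library size alone moved the median log2 fold change of all genes from 0.02 to 0.12, so that the small medians of these lists depend on the scaling.

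Regulators of growth were likewise not called. Ccnd1 was at 315 CPM in OE-Vector 1 and at 503, 661 and 545 CPM in OE-MLKL 1, 2 and 3, a log2 fold change of 0.77 ± 0.41 (SE). Ccne1 was at 7.45 CPM against 15.7, 17.5 and 13.0 CPM, a log2 fold change of 0.97 ± 0.39 (SE, edgeR unadjusted p = 0.038). In both cyclins OE-Vector 1 lay below all 3 other libraries, as it did in 9 of 20 regulators of the entry into S phase and in 4477 of all 15012 genes. Of these regulators 16 were positive and 4 negative. Cdk4, the kinase partner of cyclin D1, ran the other way at 324 CPM against 227, 290 and 237 CPM. In the RAS-MAPK list Fosl1, a target of this signalling, was at 26.1 CPM against 53, 46.9 and 69.0 CPM. Phlda1 of the same list was at 709 CPM against 359, 403 and 663 CPM, and 12 of 20 genes were positive, with a median of 0.15. Of 23 genes of MYC and ribosome biogenesis 21 were positive, with a median of 0.21, and Npm1, the nucleolar chaperone, was an exception at 1950 CPM against 1246, 1311 and 1233 CPM. No gene of the 18 lists described here was called.

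Lists of stress and survival genes had negative medians and no call, with members in both directions. In the integrated stress response 12 of 15 genes were negative, with a median of -0.16 and 4 at an unadjusted p under 0.05, beside 7132 negative and 683 under 0.05 of all 15012. Asns was at 58.0 CPM in OE-Vector 1 and at 19.4, 27.6 and 36.3 CPM in OE-MLKL 1, 2 and 3 (log2 fold change -1.18 ± 0.31, SE, edgeR unadjusted p = 0.0062). Atf5 was at 139 CPM against 26.3, 62.7 and 94.8 CPM. OE-Vector 1 was also the highest in cells under the threshold, with Asns at 28.9 CPM against 9.77, 10.5 and 16.2 CPM. Atf5 was at 114 CPM against 26.9, 57.8 and 68.9 CPM in those cells. In hypoxia and glycolysis 13 of 19 genes were negative, with a median of -0.14. Pfkl, a subunit of phosphofructokinase, was at 113 CPM against 37.2, 61.9 and 80.6 CPM. Of 19 p53 targets 13 were negative, and Gadd45a was at 53.9 CPM against 21.3, 15.1 and 43.4 CPM. Btg2, an antiproliferative gene of the p53 list, was at 344 CPM against 529, 524 and 782 CPM, and Pkm, the pyruvate kinase gene of the glycolysis list, was at 716 CPM against 930, 1054 and 767 CPM. Of 18 genes of the death machinery 8 were positive and 10 negative, with a median of -0.05, close to the split of all genes. Bcl2l1, which encodes the survival protein BCL-XL, was at 33.9 CPM against 73.8, 58.9 and 53.9 CPM (log2 fold change 0.80 ± 0.37, SE). It was below its free RNA level of 59.8, 78.3, 85.9 and 72.3 CPM in every library. In the same list Zbp1, a sensor of nucleic acids that can start necroptosis, was at 112 CPM against 13.2, 24.6 and 67.0 CPM (log2 fold change -1.84 ± 0.62, SE, edgeR unadjusted p = 0.020). Free RNA held Zbp1 at 106 CPM in OE-Vector 1 and at 25.1, 38.2 and 67.1 CPM in OE-MLKL 1, 2 and 3. Cells under the threshold held it at 118 CPM against 13.1, 32.2 and 72.7 CPM. This difference was thus not particular to proliferating cells.

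Some epithelial and mesenchymal genes varied widely between the libraries of 1 label. S100a4, a calcium-binding protein gene of mesenchymal cells, was at 504 CPM in OE-Vector 1 and at 2840, 2687 and 677 CPM in OE-MLKL 1, 2 and 3. Its log2 fold change was 2.00 ± 0.92 (SE). OE-MLKL 3 was thus close to OE-Vector 1 and far from the other two. Msln showed the same order, with 7.63 CPM against 93.5, 64.1 and 21.1 CPM. Fn1, the fibronectin gene, was at 1635 CPM against 1458, 1623 and 2750 CPM, with OE-MLKL 3 the highest. The epithelial median of 0.34 over 18 genes included sparse genes such as Dsp at 0.31 to 3.24 CPM and Cldn3 at 0.89 to 6.12 CPM. Cells under the threshold held S100a4 at 363 CPM in OE-Vector 1 and at 2215, 2351 and 563 CPM in OE-MLKL 1, 2 and 3. They held Msln at 9.18 CPM against 72.1, 56.2 and 18.8 CPM. The differences in S100a4 and Msln were thus not particular to proliferating cells.

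**Figure D5:**
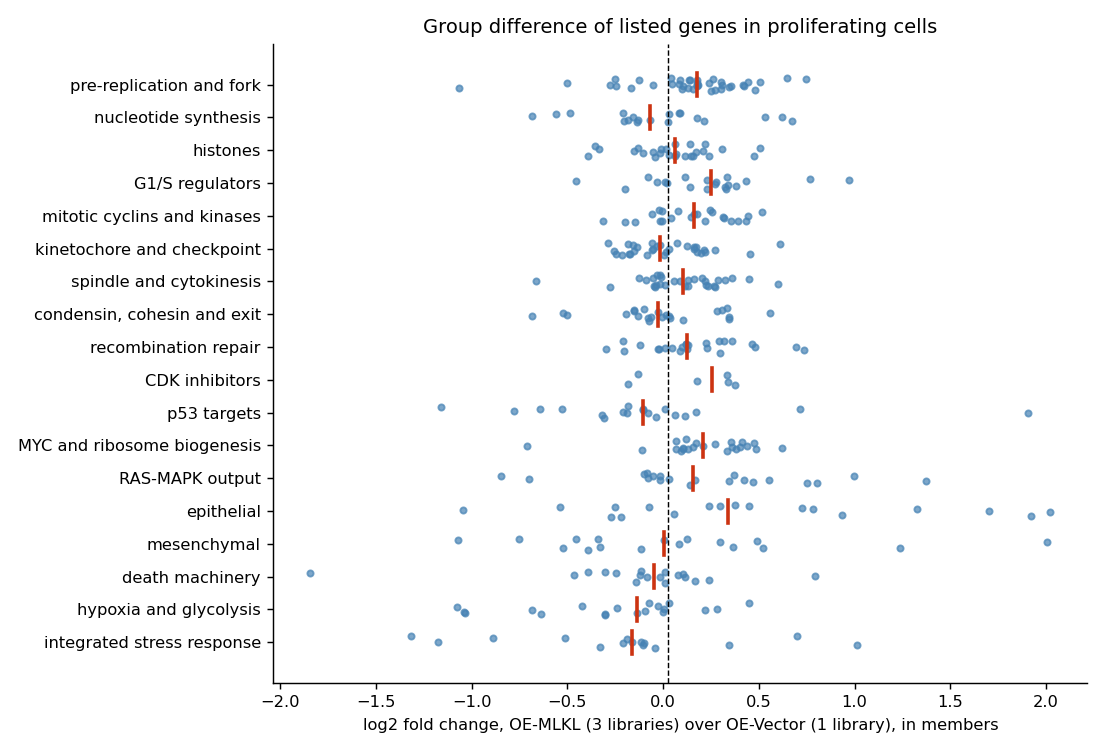
Each blue point is the log2 fold change of a listed gene in proliferating cells, 3 libraries labelled OE-MLKL over 1 labelled OE-Vector, with the median of each list in red and the median of all 15012 genes (0.02) as a dashed line. List medians lay between -0.16 and 0.34, and no listed gene shown was called.

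A last comparison asked whether the group difference in proliferating cells differed from that in cells under the threshold of the same libraries. By edgeR, 0 of 15458 genes were called (0%), with 624 below 0.05 before adjustment. The count was 1 with DESeq2 and 0 with limma-voom. Wee1, the kinase that holds back entry into mitosis, was singled out after its values were seen. It was 1 of 3 genes with the smallest adjusted p, and the others, Prl2c3 and Tnnt3, had 5 to 46 and 8 to 26 UMIs per library in proliferating cells and differences of differences of 4.89 ± 0.70 and 3.27 ± 0.50 (SE), opposite in sign to Wee1. The log2 ratio of Wee1 in proliferating cells over cells under the threshold was 1.96 in OE-Vector 1, whereas OE-MLKL 1, 2 and 3 had 0.64, 0.94 and 0.75. Cells under the threshold held it at 6.50 CPM in OE-Vector 1 and at 22.7, 23.3 and 24.0 CPM in the 3 others, while proliferating cells held it at 26.7, 35.6, 45.3 and 40.7 CPM. The difference of differences of Wee1 was -1.19 ± 0.18 (SE), for an edgeR adjusted p of 0.072, and so it was not called. Without OE-MLKL 3 the same test called 327 genes, without OE-MLKL 2 it called 19 and without OE-MLKL 1 it called 1.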

How the data were processed

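Single-cell suspensions of the tumours were profiled by droplet-based 3′ RNA sequencing. Whole-number UMI counts of every barcode, aligned to mm10, were deposited by the authors without a filter on cells. The submitters' processing notes name Cell Ranger 2.1.1, whereas the matrix headers name version 7.1.0. Whether intronic reads were counted is not given in the sources used here. Counts of 32285 genes were read for 4 libraries with a matrix. The files used here held no matrix of OE-Vector 2 or 3, so these samples were not analysed. Nothing in the labels says how many animals a sample pooled, so p-values measure the spread between these samples only.

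UMIs of the chosen cells were summed per library and tested with edgeR 4.0.16 (quasi-likelihood test, TMM scaling, filterByExpr) with Benjamini-Hochberg adjustment at 0.05. The fit left 2 residual degrees of freedom, all from OE-MLKL libraries, so OE-Vector 1 is assumed to vary like them. The interaction was fitted on 8 sums with library as a block. Single values were compared by exact two-sided permutation. DESeq2 1.42.0, limma 3.58.1, other scalings, filters and thresholds were alternatives. Computations ran in R 4.3.3 and in Python 3.11.15 with scipy 1.17.1. The test was also tried on simulated counts, and the outcome of that trial is not given here. Ratios used CPM plus 0.5. Gene positions are from GENCODE vM21.

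The cells and the 31 gene lists were chosen with earlier results of these data known. Symbols listed for more than 1 gene were left out of the lists. Genes were named by rule: those of the cell rule, called genes, the 10 smallest p-values in each direction at 20 CPM or more, the 2 most abundant and 2 most changed genes of each list, and the extremes of the profile. Further listed genes, such as the keratins, Wee1 or Plk1, were named after their values were seen.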

Additional observations from a re-analysis of the deposited data

How the results depend on the processing

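No paired analysis was possible because the groups with matrices share only replicate number 1. The number of genes called between the groups was 3. Scaling by library size alone gave 1, as did a mean of at least 20 UMIs, limma-voom and a limit of 40000 UMIs per cell. It was 30 with no filter on low counts and 43 with DESeq2. It was 0 with under 5% mitochondrial UMIs and, in alternatives chosen after seeing the data, with at least 10 UMIs of Mki67 and Top2a, with the pair at 0.03% of UMIs or more and without the haemoglobin-rich cells. Leaving out 1 OE-MLKL library gave 23 to 1030 genes. The number of genes in the comparison with cells under the threshold, 0 at first, was 56 with no filter, 1 with DESeq2, 1 with at least 5 UMIs of the pair and 5 with the pair at 0.03% or more, and leaving out 1 OE-MLKL library gave 1 to 327. The thinned difference between low and high Mgp-Dcn cells, 8.56 percentage points, was 13.8 with under 5% mitochondrial UMIs and 3.77 with at least 10 UMIs of the pair, where the thinned threshold was 3 UMIs. The cause was not tested.

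The log2 fold change of Mlkl stayed negative and uncalled in every alternative, from -0.41 to -0.01, and the S to G2/M difference stayed between 0.01 and 0.23. The share as counted stayed lower on average in the libraries labelled OE-MLKL, by 6.87 to 29.2 percentage points. After thinning, the difference was 7.96 points, and other filters and thresholds moved it from 1.20 with at most 40000 UMIs per cell to 16.3 with under 5% mitochondrial UMIs. For 150 named genes 2674 values were computed under alternatives, of which 86 passed the threshold newly, 52 of them without OE-MLKL 3, and 10 no longer passed it. The 20 genes with the smallest p-values kept their sign in all 360. They were picked by p in the same libraries, and in each OE-Vector 1 lay outside the range of the others. The kept sign follows largely from that choice and adds no support. With 1 against 3 libraries no permutation test can pass 0.05, and counts of a single draw of 2000 UMIs limit the thinned shares.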
